A study of Mus with 2 samples.

Results

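The Hippo signalling pathway genes described here are those that the authors' deposited table annotates to the KEGG map named Hippo signaling pathway, leaving out the actin genes Actb and Actg1. They were 75 of the 8191 distinct genes in the table, and they filled 176 of its 20111 entries, an entry being 1 gene in 1 cluster. The authors sequenced single kidney cells in droplets from C57BL/6 mice that were either young or senescent, making 1 library for each age group. The young library is the control, neither group is described as treated or genetically altered, and ages, sex and mouse numbers are not given in the sources used here. Both libraries were made from enzymatically digested whole kidney, and the series states 10895 cells for the young and 4408 for the senescent mice. The 7 clusters keep the authors' own labels, PT, LOH, endo and Marco, and T, B and Neutro.

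Hippo signalling is a kinase cascade that limits organ size and cell growth. The kinases MST1 and MST2, with their scaffold SAV1, activate LATS1 and LATS2 together with MOB1, and the LATS kinases phosphorylate the transcriptional coactivators YAP and TAZ. Phosphorylated YAP and TAZ are held in the cytoplasm by 14-3-3 proteins or degraded, whereas the unphosphorylated proteins enter the nucleus and bind TEAD factors to switch on growth genes. Apical-basal polarity complexes, cell junctions, TGF-beta, BMP and WNT signals all feed into the cascade, and in the kidney YAP and TAZ are known for roles in nephron development, tubular repair and fibrosis.

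All values below are means over the cells of a cluster in 1 library, on the authors' scale, and there is no replicate from which an SD or a test could be had. Each pair of values gives the young mean first. Which column is young rests on the labels' descriptions of the libraries, since the table names its contrast C57-vs-WT-48 and no source used here explains that name. An entry appears in the table only with a p-value under 0.05 and an absolute log2 fold change of 0.36 or more, so an unlisted gene is neither absent nor unchanged, and a listed one had to differ. Of the 176 entries, 175 reached a mean of 0.1 in whichever library was higher. The sequencing depth and the number of cells per cluster are unknown, so no counting interval can be given. The labels could be checked only through markers that differed. Among the fixed markers, 18 of 20 for the proximal tubule were listed in PT, 13 of 13 for macrophages and monocytes in Marco, 12 of 12 for T cells in T, 7 of 9 for B cells in B and 2 of 8 for the loop of Henle in LOH, but only Ly6c1 of 12 endothelial markers was listed in endo. Proximal tubule markers were also listed outside PT and were lower there in the senescent library. In Marco all 19 listed of 20 were lower and their summed mean went from 864 to 29.5, in T all 20 (698 to 27.7), in B all 19 listed (702 to 30.1) and in LOH all 17 listed (289 to 23.1). In endo 8 of 9 listed were lower (411 to 145), and in PT itself 9 were lower and 9 higher (963 to 276). Kap made up most of the young sum in each of these clusters. It went from 294 to 4.31 in endo and from 719 to 21.4 in PT. Gpx3 was higher in both, from 52.3 to 102 in endo and from 62.7 to 126 in PT. The senescent mean of Slc22a7 was 0 in Marco, T and B. The part of these tubule transcripts in the results below was not tested.

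Other markers were higher in the senescent library of several clusters. Neutrophil markers were higher in every entry. Their summed mean went from 0.629 to 2.05 in PT (2 of 7 listed), from 0.0575 to 5.42 in LOH (2), from 0 to 3.21 in endo (2), from 0.0589 to 6.58 in Marco (3), from 0.0172 to 0.528 in T (1) and from 0 to 1.22 in B (2). S100a8 and S100a9 were at 0 in the young library of endo and B. Loop of Henle markers in LOH were higher in both listed of 8 (69.0 to 177.0) and lower in PT in all 4 listed (6.54 to 0.689). They were also lower in Marco in all 6 listed (6.80 to 1.62) and in B in all 4 (3.77 to 0.797). In T 6 of 7 listed were lower (3.99 to 1.27), and in endo the 1 listed (0.506 to 0.229). Cd74, an antigen presentation gene among the B cell markers, went from 0.213 to 2.44 in LOH and from 1.77 to 7.18 in endo. Lyz2, a myeloid marker, went from 0.0783 to 0.665 in LOH and from 0 to 0.348 in endo, but was lower in PT (0.508 to 0.372). The immediate early genes, known to be induced by stress and by dissociating a tissue, were higher in every listed entry of a list of 16. Their summed mean went from 4.61 to 45.2 in PT (11 listed), 8.76 to 37.2 in LOH (12), 5.09 to 54.2 in endo (10), 9.71 to 122 in Marco (15), 6.70 to 36.3 in T (9) and 11.0 to 38.0 in B (9). The part of these markers and of the immediate early genes in the results below was not tested.

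In PT nearly every listed Hippo gene had a higher mean in the senescent library. PT held 61 of the 75 members, of which 60 were higher and 1 lower, where 78.4% of all 5037 listed genes of PT were higher. By the log2 fold changes in the authors' deposited table, 49 of the 61 members (80.3%) were at least 2-fold higher and 0 were at least 2-fold lower, against 57.2% and 5.6% of all listed genes. The median log2 ratio, taken with a pseudocount of 1 on each mean, was 0.30 over the members and 0.23 over all listed genes. In LOH all 19 listed members were higher (47.8% of all listed genes), 9 of them at least 2-fold (27.5%) and 0 at least 2-fold lower (21.1%), with a median log2 ratio of 0.32 beside -0.11 over all listed genes. The loop of Henle, neutrophil and immediate early genes given above were higher in LOH too. In endo 8 members were higher and 3 lower (48.2% of all listed genes higher), 7 and 1 of them at least 2-fold (41.4% and 33.9%), and the medians were 0.59 and -0.10.

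The immune clusters held members in both directions. In Marco, 27 members were higher and 10 lower (58.3% of all listed genes higher), 22 and 9 of them at least 2-fold (47.6% and 31.5%), with a median of 0.34 beside 0.23 over all listed genes. In T, 23 were higher and 12 lower (44.8% of all listed genes higher), 16 and 10 of them at least 2-fold (25.8% and 38.9%), with medians of 0.34 and -0.11. In B, 5 were higher and 7 lower (28.2% of all listed genes higher), 3 and 4 of them at least 2-fold (16.3% and 54.1%), with medians of -0.16 and -0.27. Neutro listed only Dlg1, as lower, in a cluster where 93.4% of listed genes were at least 2-fold lower. The young mean of Dlg1 there, 1.07, is the smallest young mean above 0 in Neutro, so the size of its fold against the senescent mean of 0.0452 is uncertain.

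**Figure D1:**
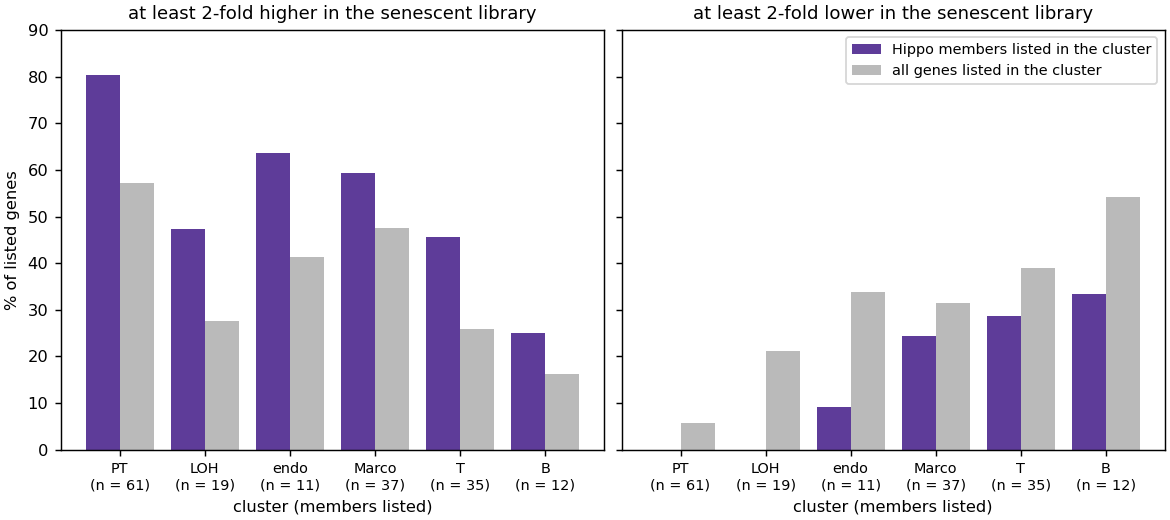
Share of genes listed in a cluster that were at least 2-fold higher (left) or lower (right) in the senescent library by the authors' log2 fold change, for Hippo members (purple, number listed under each cluster) and for all listed genes (grey), in % on the vertical axis; each bar is 1 pair of libraries and has no error. The members' bar is above the grey bar in all 6 clusters on the left and below it in all 6 on the right, with 80.3% against 57.2% higher in PT.

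With the adjusted p of 0.05 in the authors' deposited table as a further condition, 49 members remained at least 2-fold higher in PT, where 5035 of all 5037 listed genes pass it. In Marco 15 higher and 4 lower members met both conditions (22.9% and 23.6% of all listed genes), in T 3 and 2 (3.85% and 20.7%), and in LOH 1 and 0 (2.16% and 6.87%). In endo (0.389% and 0.584%), B (2.79% and 15.5%) and Neutro it was met by 0 members in either direction. That adjusted p comes from the cells of 1 library per group and depends on how many cells a cluster holds. It gives no measure of differences between mice. Members close to the fold threshold were Mob1b in PT (0.220 in young and 0.442 in senescent cells) and Ywhaz in Marco (2.24 and 4.50) just inside, and Ppp1cb in LOH (0.707 and 1.40) and Sav1 in PT (0.111 and 0.218) just outside.

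**Figure D2:**
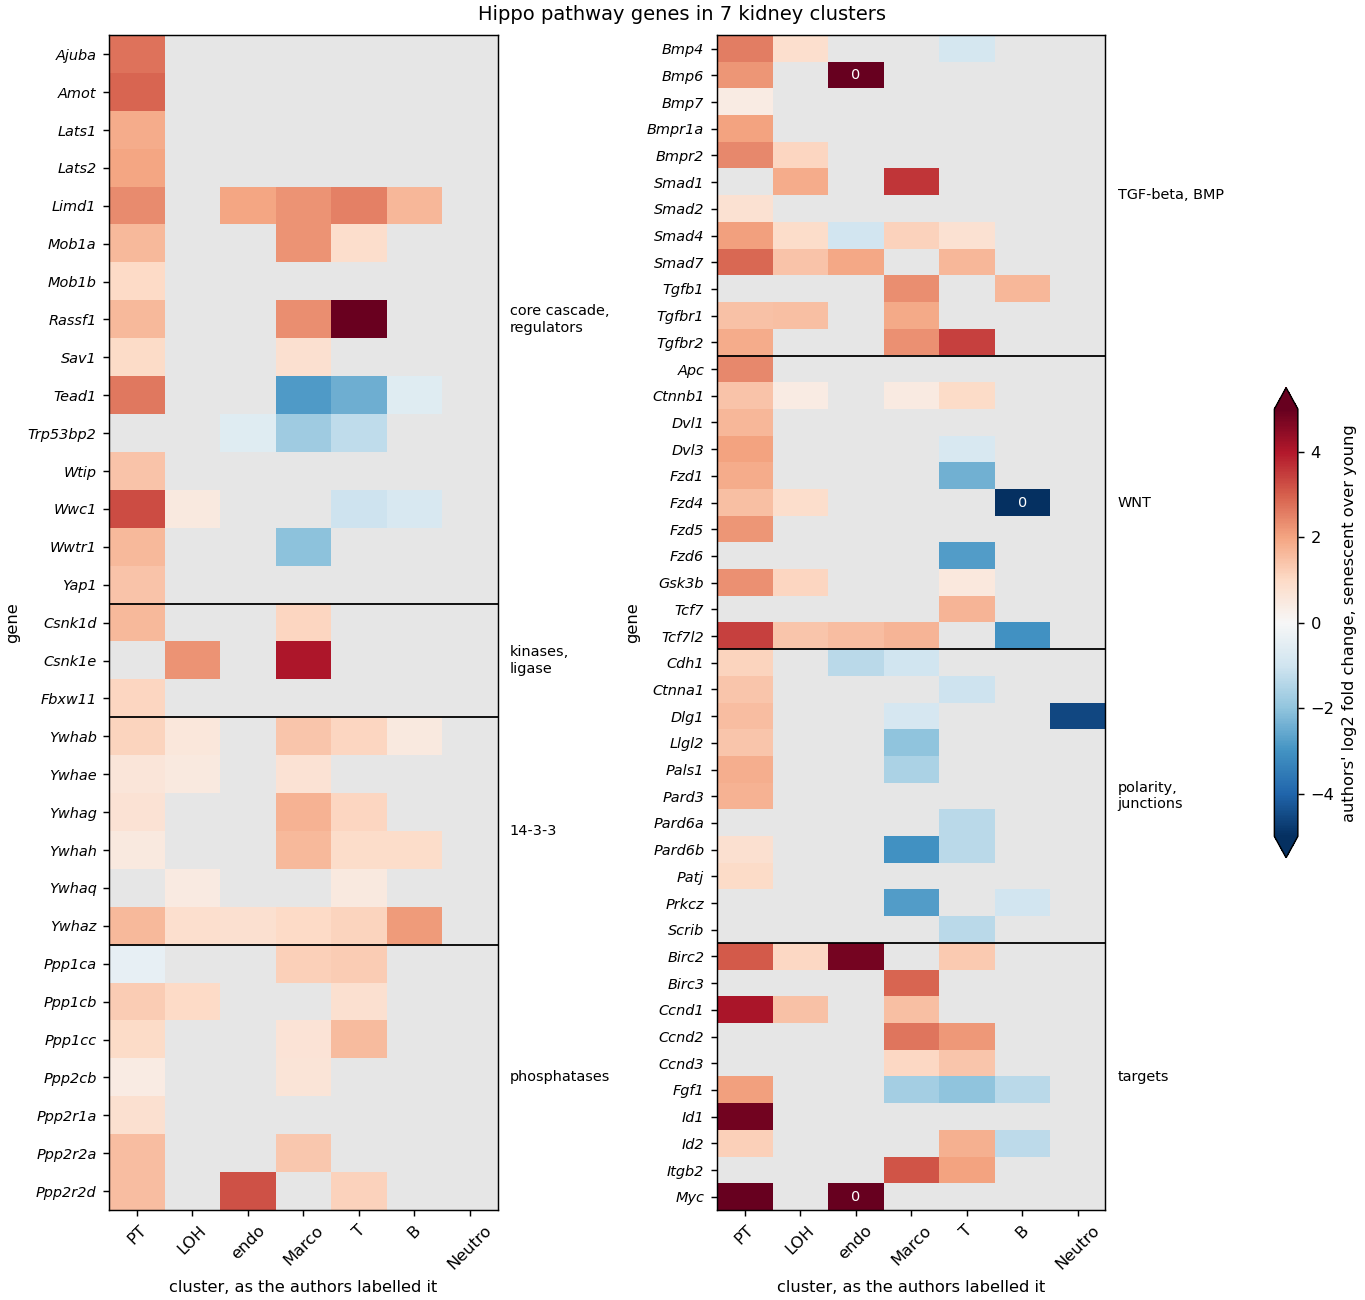
Log2 fold change, senescent over young, from the authors' deposited table for the 75 members (rows, ordered by role) in the 7 clusters (columns); red is higher and blue lower in the senescent library, grey is not listed, colours are capped at 5 in each direction, and 0 marks a gene whose mean was 0 in 1 library. The PT column is red in 60 of its 61 entries, whereas blue entries lie mainly in Marco, T and B, and in the rows of polarity genes, Tead1 and Fgf1.

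The pathway's parts are given by role, beside what all listed genes did. Over all 20111 entries 53.4% were higher, 37.6% at least 2-fold higher and 30.5% at least 2-fold lower. Since these shares differ between clusters, the share given beside a role counts each cluster as often as that role was listed in it.

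Of the 28 genes fixed for the core cascade and its regulators, 14 were listed in PT as members. All 14 were higher there (78.4% of all listed genes of PT). They had folds from 1.96 to 9.47, and 13 were at least 2-fold (57.2%). Lats1 and Lats2, the kinases that phosphorylate YAP and TAZ, had young means of 0.0724 and 0.0514 and senescent means of 0.262 and 0.203, which is 3.62-fold and 3.94-fold. Their activators Mob1a (0.110 and 0.336) and Mob1b (0.220 and 0.442) and the MST scaffold Sav1 (0.111 and 0.218) were 3.06-fold, 2.01-fold and 1.96-fold higher.

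Yap1 itself went from 0.0756 to 0.203 in PT, a 2.69-fold difference, and was listed in no other cluster. Wwtr1, which encodes TAZ, went from 0.166 to 0.513, or 3.09-fold. Tead1, the DNA-binding partner of both and the only TEAD gene listed, went from 0.234 to 1.47, or 6.30-fold. The largest difference of the group was in Wwc1, which encodes the upstream regulator KIBRA, from 0.245 to 2.32 or 9.47-fold. Amot, a junctional scaffold that binds YAP, was 7.55-fold higher (0.0393 and 0.296). The LIM proteins of the Ajuba family, which bind and restrain the LATS kinases, were higher as a group, Ajuba 6.65-fold (0.0283 and 0.188), Limd1 5.19-fold (0.120 and 0.625) and Wtip 2.66-fold (0.114 and 0.302). Rassf1, a scaffold that binds the MST kinases, had means of 0.135 and 0.417.

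**Figure D3:**
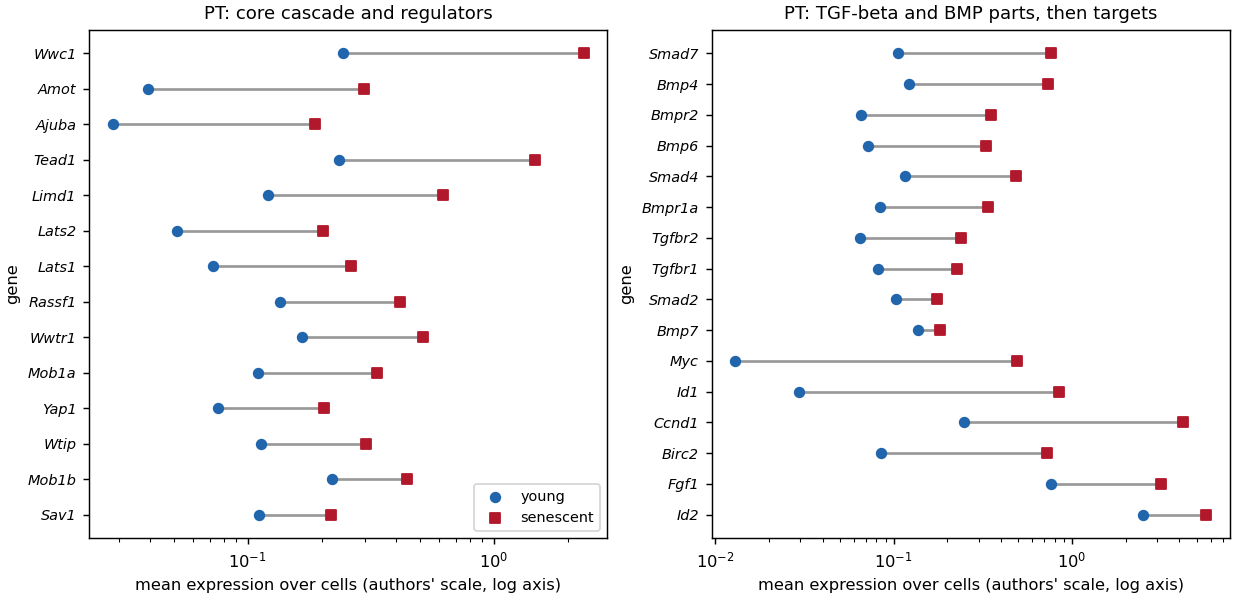
Means in the PT cluster of the young (blue circles) and the senescent library (red squares) on a log axis in the authors' units, for the core cascade and its regulators (left) and for TGF-beta and BMP parts followed by target genes (right), 1 value per library. All 30 genes shown had the senescent mean to the right of the young one, from Bmp7 (0.138 and 0.183) to Myc (0.0129 and 0.490).

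Over all clusters 24 of 33 entries of this group were higher (60.7% of all listed genes), 20 at least 2-fold (43.9%), and 6 were at least 2-fold lower (23.7%). Outside PT the group divided. Limd1 was higher in each of the 5 clusters that listed it, with means of 0.208 and 0.824 in endo, 0.169 and 0.809 in Marco, 0.142 and 0.814 in T and 0.355 and 1.11 in B, so that its folds ran from 3.13 in B to 5.72 in T. Mob1a was 4.71-fold higher in Marco (0.344 and 1.62) and 1.85-fold in T (0.628 and 1.16). Rassf1 was 4.98-fold higher in Marco (0.141 and 0.700). In T it went from 0.0172 to 0.534, but the young value is the smallest above 0 in that cluster, so the fold is uncertain. Sav1 in Marco was at 0.122 and 0.214.

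Tead1 was lower in all 3 lymphoid and myeloid clusters that listed it. It had means of 0.627 and 0.0889 in Marco, 0.540 and 0.0996 in T and 0.421 and 0.280 in B, which is 7.05-fold, 5.42-fold and 1.51-fold lower in the senescent library. These young means exceeded that of Tead1 in PT (0.234), and the senescent ones were below that in PT (1.47). Wwtr1 was also lower in Marco, at 0.224 and 0.0543. Wwc1 was lower in T (0.419 and 0.203) and B (0.378 and 0.218) but higher in LOH (1.35 and 1.89). Trp53bp2, which encodes the p53-binding protein ASPP2, was the only one of the 15 genes of this group that was lower wherever listed, at 0.654 and 0.435 in endo, 0.380 and 0.111 in Marco and 0.345 and 0.144 in T.

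Of the same 28 genes, 12 were listed in no cluster, among them Stk3 (MST2), Nf2, which encodes the upstream regulator merlin, Tead2, Tead3 and Tead4. Stk4, which encodes MST1, is in the table but carries no Hippo annotation in it. Its values were 0.169 and 0.810 in Marco and 0.577 and 1.55 in T.

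The 14-3-3 genes, whose proteins hold phosphorylated YAP in the cytoplasm, went 1 way throughout. All 6 were listed, in 23 entries, and all 23 were higher in the senescent library (53.6% of all listed genes), 10 of them at least 2-fold (37.1%). Ywhaz was the member listed in the most clusters, 6, with means of 1.15 and 3.53 in PT, 2.00 and 3.59 in LOH, 2.44 and 4.27 in endo, 2.24 and 4.50 in Marco, 2.46 and 5.34 in T and 1.21 and 5.29 in B. Its fold was largest in B (4.36) and smallest in endo (1.75). Ywhab was higher in 5 clusters, from 1.39-fold in B (1.25 and 1.74) to 2.58-fold in Marco (1.20 and 3.10). In Marco, Ywhag (0.308 and 1.02) and Ywhah (0.806 and 2.49) were 3.30-fold and 3.09-fold higher, while in PT they were 1.64-fold (0.207 and 0.340) and 1.39-fold higher (0.503 and 0.696). Ywhae was listed in PT, LOH and Marco with folds of 1.53, 1.40 and 1.64, and Ywhaq in LOH and T with folds of 1.36 and 1.41. How reads shared by similar family members were assigned was not given in the sources used here.

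Casein kinase 1 delta and epsilon phosphorylate YAP after LATS and mark it for a ubiquitin ligase, and all 5 entries of this group were at least 2-fold higher (47.4% of all listed genes). Csnk1d was 3.04-fold higher in PT (0.127 and 0.386) and 2.09-fold in Marco (0.218 and 0.455). Csnk1e was 16.5-fold higher in Marco (0.0436 and 0.719) and 4.70-fold in LOH (0.0512 and 0.241). Fbxw11, which encodes a substrate receptor of that ligase, was listed in PT only (0.143 and 0.303).

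Protein phosphatases 1 and 2A, which reverse phosphorylation in the cascade, gave 16 higher entries and 1 lower one (62.2% of all listed genes higher). The exception was Ppp1ca, a catalytic subunit of phosphatase 1, which was the only member lower in PT, 1.31-fold (2.03 and 1.55). It was higher in Marco (1.40 and 3.21) and in T (1.48 and 3.57). The other catalytic subunit genes Ppp1cb (0.313 and 0.749) and Ppp1cc (0.444 and 0.856) were 2.39-fold and 1.93-fold higher in PT. Among the phosphatase 2A subunits in PT, the regulatory genes Ppp2r2a (0.123 and 0.360) and Ppp2r2d (0.212 and 0.618) were 2.93-fold and 2.91-fold higher, the scaffold gene Ppp2r1a 1.76-fold and the catalytic gene Ppp2cb 1.32-fold. In endo Ppp2r2d was at 0.0747 and 0.671.

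The TGF-beta and BMP parts were higher in 27 of 29 entries (59.1% of all listed genes), 22 of them at least 2-fold (42.0%). In PT all 10 listed members were higher (78.4% of all listed genes of PT). Among them were ligands and receptors of the BMP branch, both TGF-beta receptors and 3 Smads. The ligand genes Bmp4 (0.122 and 0.728) and Bmp6 (0.0722 and 0.329) were 5.96-fold and 4.56-fold higher in PT, and Bmp7, a ligand made by the nephron, 1.33-fold (0.138 and 0.183). The BMP receptor genes Bmpr1a (0.0839 and 0.337) and Bmpr2 (0.0659 and 0.350) were 4.01-fold and 5.32-fold higher. The TGF-beta receptor genes Tgfbr1 (0.0819 and 0.225) and Tgfbr2 (0.0651 and 0.238) were 2.75-fold and 3.65-fold higher there. Smad2, a Smad of the TGF-beta branch, was at 0.103 and 0.175 in PT. Smad4, the Smad shared by both branches, was 4.16-fold higher in PT (0.116 and 0.483), and Smad7, an inhibitory Smad that the pathway itself induces, 7.28-fold (0.105 and 0.766).

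Smad7 was also higher in LOH (0.409 and 1.10), endo (0.243 and 0.938) and T (0.441 and 1.40). In LOH, Tgfbr1 (0.148 and 0.416), Smad1 (0.0726 and 0.264) and Bmpr2 (0.240 and 0.512) were 2.82-fold, 3.64-fold and 2.13-fold higher. In endo, Bmp6 had a young mean of 0 and a senescent mean of 0.438, and Smad4 was lower (1.11 and 0.574).

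The ligand gene Tgfb1 was listed in immune clusters only. It went from 0.311 to 1.57 in Marco, or 5.06-fold, and from 0.351 to 1.12 in B, or 3.19-fold. Both receptor genes were higher in Marco as well, Tgfbr1 3.71-fold (0.327 and 1.21) and Tgfbr2 4.81-fold (0.260 and 1.25), and Tgfbr2 was 10.6-fold higher in T (0.0817 and 0.864). Smad1 in Marco was at 0.0257 and 0.308. Bmp4 in T was the other lower entry, at 0.0973 and 0.0527. The macrophage and monocyte markers of Marco were higher too, in 13 of 13, with a summed mean of 33.9 in young and 200.0 in senescent cells. The T cell markers of T were higher in 12 of 12 (20.0 and 73.7), and the B cell markers of B in all 7 listed of 9 (72.6 and 200.7). Their part in the higher members of these clusters was not tested.

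The WNT parts were higher over all clusters in 19 of 24 entries (57.8% of all listed genes). In PT all 9 listed members were higher (78.4% of all listed genes of PT), each at least 2-fold (57.2%). Tcf7l2, a transcription factor that binds beta-catenin, was 10.6-fold higher there (0.0649 and 0.687). Genes of the complex that degrades beta-catenin were higher with it, Apc 5.36-fold (0.0656 and 0.352) and Gsk3b 4.88-fold (0.228 and 1.12), as was beta-catenin itself, Ctnnb1, 2.72-fold (0.395 and 1.07). The receptor genes Fzd1 (0.0962 and 0.346), Fzd4 (0.0925 and 0.264) and Fzd5 (0.0404 and 0.185) were 3.60-fold, 2.85-fold and 4.57-fold higher. Dvl1 (0.153 and 0.478) and Dvl3 (0.0661 and 0.264), which relay the receptor signal, were 3.13-fold and 3.99-fold higher. None of the 19 Wnt ligand genes of the fixed list was listed in any cluster, and neither was Axin2, a commonly used readout of WNT activity.

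Elsewhere Tcf7l2 was higher in LOH (0.253 and 0.667), endo (0.242 and 0.711) and Marco (0.125 and 0.403) and lower in B (0.211 and 0.0260). Ctnnb1 was higher in each of the 4 clusters that listed it, by 1.33-fold in LOH, 1.38-fold in Marco and 1.92-fold in T. The frizzled genes were lower in lymphoid clusters, Fzd1 in T (0.157 and 0.0296), Fzd6 in T (0.152 and 0.0218) and Fzd4 in B, where its young mean was 0.226 and its senescent mean 0. Tcf7, a T cell transcription factor, was 3.24-fold higher in T (0.439 and 1.42).

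Polarity and junction genes were divided between PT and the other clusters. All 8 that were listed in PT were higher there, as were 78.4% of all listed genes of PT. All 13 entries outside PT were lower (54.9% of all entries outside PT), 11 of them at least 2-fold (38.8%). These 2 shares are pooled over the clusters outside PT and are not weighted by role. Of the 11, 3 also passed the adjusted p of 0.05 in the authors' deposited table. In PT the folds ran from 1.76 for Pard6b (0.129 and 0.226) to 3.54 for Pals1 (0.136 and 0.481), the adaptor of the apical Crumbs complex. Pard3 (0.0880 and 0.297), the scaffold of the Par complex, was 3.38-fold higher in PT, and Dlg1 (0.0862 and 0.249) and Llgl2 (0.152 and 0.397), of the basolateral Scribble module, 2.89-fold and 2.62-fold. Ctnna1, which encodes alpha-catenin, was at 0.295 and 0.765, Cdh1, which encodes E-cadherin, at 0.0919 and 0.197 and Patj at 0.145 and 0.277.

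In Marco, Pard6b was 8.19-fold lower (0.301 and 0.0368) and Prkcz, the atypical protein kinase C of the Par complex, 6.98-fold lower (0.374 and 0.0536). Llgl2 (0.172 and 0.0425), Pals1 (0.257 and 0.0858) and Cdh1 (0.193 and 0.0954) were 2.02-fold to 4.05-fold lower in Marco, and Dlg1 1.79-fold (0.221 and 0.124). In T, Pard6a (0.247 and 0.0960), Pard6b (0.153 and 0.0601), Scrib (0.162 and 0.0640) and Ctnna1 (0.562 and 0.271) were lower, by 2.08-fold to 2.58-fold. Prkcz was lower in B (0.353 and 0.184) and Cdh1 in endo (1.55 and 0.614). E-cadherin and the Crumbs and Par components are best known from epithelium. The tubule markers given above were also lower in endo (8 of 9 listed), Marco, T and B, and their part in these values was not tested.

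**Figure D4:**
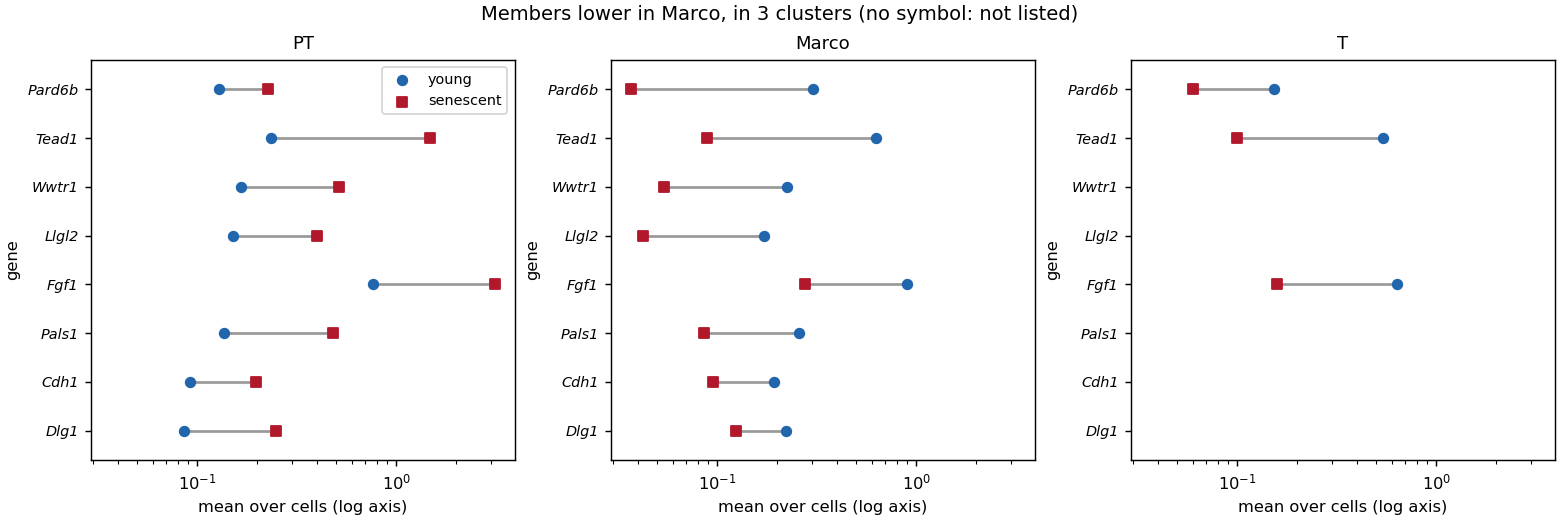
Young (blue circles) and senescent (red squares) means on a log axis in the authors' units, in PT, Marco and T, for the 8 members that were lower in Marco and listed in PT; a gene without symbols was not listed in that cluster. In PT the senescent mean is to the right of the young one for all 8, in Marco to the left for all 8 and in T to the left for the 3 listed.

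Members that were lower in an immune cluster were compared with their own level in PT. Of the 10 lower members in Marco, 8 were listed in PT. All 8 were higher in PT, all 8 had a young mean in Marco above that in PT, and all 8 had a senescent mean in Marco below that in PT. In T the same held for the young mean in 6 of 8 and for the senescent mean in 8 of 8, and in B in 5 of 6 and 6 of 6. These members were chosen because they were lower in the immune cluster, and 60 of the 61 members in PT were higher there. The choice therefore favoured these counts, and the same counts over all genes were not computed. The clusters share 1 pair of libraries and are not separate samples. Over all clusters, 52 of the 75 members were higher wherever listed (49% of all 8191 genes), 5 were lower wherever listed (26.4%), namely Fzd6, Pard6a, Prkcz, Scrib and Trp53bp2, and 18 went both ways (24.6%). Of the members 30.7% were listed in 1 cluster only, and of all genes 33.9%.

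Target genes of the map were at least 2-fold higher in 20 of 24 entries (39.8% of all listed genes) and at least 2-fold lower in the other 4 (28.1%). The largest folds among members in PT belonged to this group. Myc, which encodes a growth-promoting transcription factor, went from 0.0129 to 0.490 or 37.9-fold, and Id1, an inhibitor of differentiation factors that BMP signals induce, from 0.0295 to 0.840 or 28.5-fold. Ccnd1, which encodes cyclin D1, was 17.0-fold higher in PT (0.247 and 4.21), 2.79-fold in LOH (1.75 and 4.89) and 2.80-fold in Marco (0.513 and 1.44). Birc2, an inhibitor of apoptosis, was 8.48-fold higher in PT (0.0851 and 0.722), and its means in endo were 0.0947 and 2.63. Myc in endo had a young mean of 0 and a senescent mean of 1.18. The immediate early genes were higher in the same clusters, with the sums given above, and their part in the higher Myc, Id1, Ccnd1 and Birc2 was not tested.

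The other cyclin D genes were listed in immune clusters. Ccnd2 was 6.40-fold higher in Marco (0.120 and 0.770) and 4.45-fold in T (1.17 and 5.19), and Ccnd3 2.02-fold in Marco (0.491 and 0.995) and 2.61-fold in T (0.655 and 1.71). Birc3 in Marco was 7.45-fold higher (0.0387 and 0.289). Itgb2, the beta chain of leukocyte integrins, was 8.81-fold higher in Marco (0.292 and 2.57) and 4.08-fold in T (0.453 and 1.85), beside the higher leukocyte markers given above. Id2 was higher in PT (2.50 and 5.63) and T (2.76 and 9.59) and lower in B (2.28 and 0.925). Fgf1, a growth factor gene, was 4.10-fold higher in PT (0.766 and 3.14) and lower in Marco (0.900 and 0.276), T (0.634 and 0.158) and B (0.833 and 0.330). The target genes Ccn2, Areg and Birc5 were listed in no cluster.

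A list of 22 YAP and TAZ target genes used across tissues, of which only Lats2 is also a member here, was read beside the map's own targets. Only 11 of the 22 were listed in any cluster. In PT 9 of them were listed and all 9 were higher (78.4% of all listed genes), 8 at least 2-fold (57.2%). Ccn1, a matricellular protein gene, was 16.4-fold higher in PT (0.242 and 3.98), Amotl2, which encodes an angiomotin that binds YAP, 15.2-fold (0.0802 and 1.22) and Nuak2 13.9-fold (0.251 and 3.47). In endo 4 of 5 listed were higher (48.2% of all listed genes), with Ccn1 at 0.347 and 6.34 and Amotl2 at 0.135 and 1.23. In LOH all 3 listed were higher (47.8%), with Ccn1 at 0.0445 and 0.776. In Marco 4 were higher and 2 lower (58.3% of all listed genes higher). In T all 3 and in B both listed genes were lower, among them Gadd45a and Nt5e in each. Of all listed genes 44.8% were higher in T and 28.2% in B. Ankrd1, often used with Ccn1 and Ccn2 as a readout of YAP, was not listed. Ccn1 is itself known as an immediate early gene, and the part of dissociation in its values was not tested.

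Regulators of the cascade that the map leaves out were read the same way, from a list of 19. Of the 19, 12 were listed in any cluster, among them Amotl2, which is also counted among the 22 target genes above. In PT all 11 listed were higher (78.4% of all listed genes), each at least 2-fold (57.2%). They included Taok1 (0.125 and 0.632), Taok2 (0.0462 and 0.225) and Taok3 (0.0310 and 0.232), kinases upstream of MST and LATS, the KIBRA relative Wwc2 (0.197 and 1.17) and Vgll4 (0.0604 and 0.277), which competes with YAP for TEAD. Vgll4 was higher in each of the 4 clusters that listed it, with means of 0.197 and 1.02 in T. Wwc2 was higher in LOH (0.806 and 1.60) and lower in Marco (0.354 and 0.195), T (0.446 and 0.0705) and B (0.431 and 0.245).

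The members share other annotations in part. Of the 75, 27 were also annotated to pathways in cancer, 27 to human papillomavirus infection, 21 to gastric cancer and 19 to signalling that regulates pluripotency of stem cells. Another 4 annotations were the WNT map (18 members), that of TGF-beta (17), tight junctions (15) and the cell cycle (14). The members with a cell cycle annotation were higher in all 10 listed in PT (78.4% of all listed genes), 7 in LOH (47.8%) and 10 in Marco (58.3%). They were also higher in all 9 listed in T (44.8%) and all 4 in B (28.2%). In endo (48.2%) 2 were higher and Smad4 was lower. These entries are also counted in the role groups above and are not a separate result. In B only 5 members were higher at all, and 3 of these were 14-3-3 genes. Members with a tight junction annotation were higher in 12 of 12 in PT (78.4%). In Marco 5 of 8 were lower, where 58.3% of all listed genes were higher. All 75 were matched by symbol or synonym to RefSeq in the assembly GRCm38.p6, which mm10 corresponds to, and lie scattered over the genome. Yap1 lies on chromosome 9 from 7931999 to 8004638, Wwtr1 on chromosome 3 from 57455644 to 57575910, Tead1 on chromosome 7 from 112679356 to 112906784 and Wwc1 on chromosome 11 from 35838399 to 35980527. All 4 are protein-coding, and each value is for the whole gene.

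Genes higher in PT were longer than genes lower there. The median genomic span was 35.6 kb over all listed genes higher in PT, 8.86 kb over those lower, and 35.1 kb over the 60 higher members. In Marco the 10 lower members had a median span of 91.3 kb, against 20.5 kb over all lower genes and 27.1 kb over the 27 higher members. In B the 7 lower members had 101 kb, against 17.9 kb over all lower genes. In T the 12 lower members had 27.3 kb, against 21.4 kb over all lower genes and 27.1 kb over the 23 higher members. Whether span bears on these values was not tested.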

How the data were processed

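The series holds 2 single-cell libraries, 1 from young and 1 from senescent mice. Reads had been processed with Cell Ranger 2.1.1 on build mm10, per the submitters' processing notes. How cells were filtered and clustered, how doublets were treated and which test was used is not stated in the sources used here. The deposited means per cluster and library are a signal averaged by the authors on an unstated scale, assigned to libraries by the labels' descriptions. The deposited log2 fold changes could be recomputed within 0.01 in all 176 member entries from the means of both libraries (senescent over young, each plus 0.0001). The deposited p-values and adjusted p-values are the authors' and come from cells.

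Computed here with Python 3.11.15, numpy 2.4.6, pandas 2.3.3 and matplotlib 3.10.9 were ratios of means, counts past an absolute log2 fold change of 1, and medians of the log2 ratio with a pseudocount of 1 over genes that reached a mean of 0.1 in either library (5 or more genes). With 1 library a group, no test was run. The counting was tested on simulated data. Named were members reaching a mean of 0.1 in some cluster, with every listed member of the core cascade. Genes of the fixed lists named beside them were chosen after their values were seen, as was Bmp4 in T. Members and lists were chosen with earlier results of these data known. Second names of 1 gene were counted once. Protein and promoter sequences were not used here.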

Additional observations from a re-analysis of the deposited data

Results flagged for a closer look

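Opposite directions in different clusters, each at least 2-fold and past the adjusted p of 0.05 in the authors' deposited table, were found for 3 members. How many of all 8191 genes met this rule was not computed, so 3 cannot be called many or few. Without these conditions, 24.6% of all genes went both ways. Tead1 had log2 fold changes of 2.65 in PT, -2.82 in Marco and -2.44 in T in the authors' deposited table. For Fgf1 the authors' deposited table gave 2.04 in PT and -1.71 in Marco, and for Ctnna1 1.37 in PT and -1.05 in T. The difference between clusters was not tested, since each cluster had 1 library per group. Tubule markers were also lower in Marco (all 19 listed) and T (all 20), and their part in these 3 members was not tested.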

How the results depend on the processing

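With a threshold of 1.5 on the log2 fold change, the count of higher members was 2 in LOH, 14 in Marco and 9 in T. That of lower members was 0 in endo, 4 in T and 2 in B. The shares of all listed genes at this threshold were not computed, so these counts cannot be set against them. With the authors' adjusted p of at most 0.05, higher members numbered 1 in LOH, 3 in T and 0 in endo and B, and lower members 4 in Marco, 2 in T and 0 in endo, B and Neutro. In PT the counts of higher members, 37 and 49, stayed within 1.5 times the reported one, and 0 were lower in either case. With a pseudocount of 0.1 the median log2 ratio was 1.10 in PT, 0.82 in LOH, 1.59 in endo, 0.98 in Marco, 0.82 in T and -0.52 in B, each with the reported sign. Without a filter on low means it was 0.33 in T. Without members with a higher young mean in PT it was 0.53 in endo, 0.32 in Marco, 0.33 in T and -0.15 in B. Membership from all 3 Hippo maps of the table, chosen after seeing the data, gave 0.33 in Marco and -0.18 in B. No median reversed under any of these settings. No paired analysis was possible because each group had 1 library, and no replicate could be left out. Depth is unknown, and means near the smallest listed, such as the young mean of Rassf1 in T, limit the folds.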

Other observations

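Maps of the Hippo pathway in the fly and in several species add 5 genes of the table to the 75. Rere and Tshz1, which encode transcriptional regulators, were higher in PT (0.264 and 1.08, and 0.121 and 0.460) and in LOH (0.176 and 0.558, and 0.224 and 0.520), while Tshz1 was lower in Marco (0.404 and 0.171). Pak1, a kinase that phosphorylates merlin, was higher in PT (0.123 and 0.329) and lower in T (0.266 and 0.0292) and B (0.365 and 0.0307). Rassf4 (0.289 and 1.47) and Rassf2 (0.0856 and 0.360), relatives of Rassf1, were higher in Marco, and Rassf2 in T had a young mean of 0 and a senescent mean of 0.402.

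The actin genes that were left out of the members were higher wherever listed. Actb was higher in 6 clusters, from 1.46-fold in endo (13.6 and 19.9) to 5.35-fold in Marco (21.8 and 116), and Actg1 in Marco (5.47 and 18.3) and T (6.01 and 11.3).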
